A study of Mus musculus with 912 samples.

Results

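Synaptopodin (Synpo) and 6 genes for proteins that bind or organize actin in dendritic spines (Baiap2, Vcl, Actn1, Actn2, Actn4 and Palld) were followed through single nuclei of the mouse hippocampus. These are 7 of the 42772 genes with a value in the count tables. They were picked by symbol because Synpo, Baiap2 and Vcl were higher in FOS+ than in FOS− dentate granule (DG) nuclei 1 h after 15 min in an unfamiliar environment, so the values of that contrast, and of the same FOS+ nuclei against home cage (HC) nuclei, are given as a description with no test.

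Dendritic spines hold most excitatory synapses of the forebrain, and their shape and strength follow the state of a dense actin network. Synaptopodin marks the spine apparatus, a stack of smooth endoplasmic reticulum found in the larger spines, and binds both actin and alpha-actinin. Granule cells of the dentate gyrus, where few neurons fire in any one environment, are a classical setting for activity-dependent change in spines, and synaptopodin is abundant in their dendrites.

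Nuclei came from wild-type C57BL6 female mice, 7.75 to 9 weeks old in the DG groups and 8.7 to 9 weeks in the other cell types. They were sorted by flow cytometry with antibodies to PROX1, CTIP2 and FOS, together with NEUN in the HC and 1 h groups and ARC in the later DG groups. Each nucleus was a SmartSeq2 library, and cell types of the HC and 1 h nuclei are those the authors assigned. HC mice stayed in the home cage, and 1 h mice were killed 1 h after that exposure, with FOS− and FOS+ nuclei taken from the 1 h mice. ARC+FOS− DG nuclei were taken at 4 h and 5 h after 1 exposure, and ARC+FOS− and ARC+FOS+ DG nuclei 1 h after a second exposure, which followed the first by 4 h and was to the same environment (A>A) or to another one (A>C). ARC protein served as the mark of activity, which in ARC+FOS+ nuclei can stem from the second exposure itself. Each of these later groups thus holds sorted nuclei and not DG nuclei at large.

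The authors' depth filters passed 818 of 912 nuclei, and 783 were used once FOS− nuclei of HC and 1 h mice with Arc above 2.5 were left out, with total counts of 142275 to 5885216 (median 1251690). Counts and log2(TPM+1) were averaged or summed per mouse, and a mouse entered with at least 2 nuclei. DG HC was represented by 2 mice (18 and 5 nuclei), the 4 h group by 2, the 5 h group by 4, A>A FOS− and FOS+ by 6 each and both A>C groups by 2 each. Both 1 h DG groups came from 1 mouse, mouse 3. A>A FOS− mice were 7.75 to 8.875 weeks old and A>A FOS+ mice 8.85 to 9 weeks. A>C FOS+ and FOS− nuclei came from different mice and carry different leading codes in their library names (called library sets here), so mouse, library set and FOS cannot be told apart there. The 5 h nuclei had a median total count of 426841, against 2469299 at 4 h. Prox1, a granule cell marker whose protein was also used for sorting, was detected in 96.4% of DG and 77.3% of VIP nuclei. C1ql2, Dock10, Glis3 and Dsp were detected in 70.6%, 87.6%, 62.0% and 16.7% of DG nuclei. The neuron markers Snap25, Syt1, Map2 and Rbfox3 were in 99.8%, 99.6%, 99.5% and 56.5% of DG nuclei. Vip, Gad1, Gad2 and Calb2 were in 90.9%, 97.0%, 95.5% and 47.0% of VIP nuclei. In DG nuclei, Gad1 and Gad2 were in 66.3% and 49.6%, and Vip in 0.717%.

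RefSeq promoter windows of GRCm38.p6, read up to 250 bases before the start, were searched on both strands for motifs of factors that activity switches on in neurons: the cAMP response element (TGACGTCA), its TGACG core (also counted inside the whole element), AP-1 (TGANTCA), the GC box (GGGCGG) and the CArG box bound by serum response factor. Windows were read for 6 of the genes, and bases that GENCODE places in exons were left out, which removed the whole Baiap2 window. The upstream stretches of Vcl and Actn4 are shown because both had higher means than HC in a later DG group and both hold one of the rarer motifs. The Vcl stretch, chr14:20929148-20929397 on the plus strand, is written with its CArG box in capitals and its 4 GC boxes in lower case, and the Actn4 stretch, chr7:28962341-28962582 on the minus strand, with its AP-1 site and its TGACG core in capitals, in that order.
Vcl: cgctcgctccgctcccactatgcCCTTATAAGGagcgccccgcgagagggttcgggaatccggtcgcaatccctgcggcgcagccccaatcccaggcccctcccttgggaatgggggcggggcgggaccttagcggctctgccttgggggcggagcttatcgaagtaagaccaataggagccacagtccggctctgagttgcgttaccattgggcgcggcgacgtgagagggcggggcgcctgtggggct
Actn4: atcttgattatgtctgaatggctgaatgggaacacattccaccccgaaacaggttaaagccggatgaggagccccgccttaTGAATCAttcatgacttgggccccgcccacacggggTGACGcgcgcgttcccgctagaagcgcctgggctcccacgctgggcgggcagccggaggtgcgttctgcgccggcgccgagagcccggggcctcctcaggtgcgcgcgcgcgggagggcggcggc

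The CArG box of Vcl ended 218 bases before the start, and 1.47% of 32851 promoters hold one. In Actn4 the AP-1 site lay 163 bases and the TGACG core 129 bases before the start; 6.75% and 17.8% of promoters hold these. One of the 3 Palld promoters had an AP-1 site 48 bases before its start. No whole cAMP response element was in any of the stretches searched, where 1.55% of promoters hold one, and GC boxes, in 32.7% of promoters, were in those of Vcl, Actn1, Actn2, Actn4 and 1 of Palld. These matches describe letters in a window only.

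The 7 genes lie on 7 chromosomes of GRCm38: Synpo at 18:60593973-60660142 and Baiap2 at 11:119942763-120006782, Vcl at 14:20929398-21033676, Actn1 at 12:80167547-80260371, Actn2 at 13:12269426-12340760, Actn4 at 7:28893248-28962340 and Palld at 8:61511433-61902690, with Baiap2 and Vcl on the plus strand and the others on the minus strand. Reads were single-end and 50 bases long, which can mix near-identical genes. In the GENCODE vM21 transcripts, 16 of 5520 different stretches of 50 bases in Actn1 were also found in Actn4, 2 of 3802 in Actn2 were also found in Actn3, and none of those in Synpo, Baiap2, Vcl or Palld was found in another gene. Only identical stretches of that length were searched, so the alpha-actinin values are uncertain to at least that extent.

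At 1 h, all 7 genes had a higher mean log2(TPM+1) in the FOS+ than in the FOS− DG nuclei of mouse 3, which is the contrast the genes were chosen on and comes from 1 animal. Synpo was at 5.30 in 27 FOS− nuclei and 10.06 in 26 FOS+ nuclei. Baiap2, which encodes the membrane-bending scaffold IRSp53 of the postsynaptic density, was at 8.25 and 11.58. Vcl, for the adhesion protein vinculin that ties actin to membranes, was at 0.92 and 3.18. Synpo and Baiap2 were thus far more abundant per transcript length than the other members in these FOS+ nuclei. The crosslinkers were lower throughout: Actn1 was at 0.73 and 2.64, Actn2, the alpha-actinin that also binds NMDA receptors, at 1.57 and 4.59, and Actn4 at 1.64 and 3.63. Palld, for the actin crosslinker palladin, was at 0.28 and 0.33, a difference of 0.05 where those of the others lay between 1.91 and 4.77.

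Single nuclei differed in how they carried these means. In HC, the 25 DG nuclei spread from 0 to 9.06 log2(TPM+1) for Synpo with a median of 4.34, and 14 of the 27 FOS− nuclei at 1 h lay above that median. Of the FOS+ nuclei at 1 h, 25 of 26 did so, and 1 FOS+ nucleus was at 0.77. Vcl was carried by part of the nuclei: it had a count in 3 of 25 HC nuclei (12%), 8 of 27 FOS− nuclei (29.6%) and 19 of 26 FOS+ nuclei (73.1%), and with every nucleus thinned to 100000 counts these shares became 4%, 18.5% and 50%. The 95% counting intervals of the shares before thinning were 2.55 to 31.2%, 13.8 to 50.2% and 52.2 to 88.4%. They, like the limit on a share given further below, cover counting error only. The 1 h nuclei came from 1 mouse, and reads include PCR copies.

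**Figure D1:**
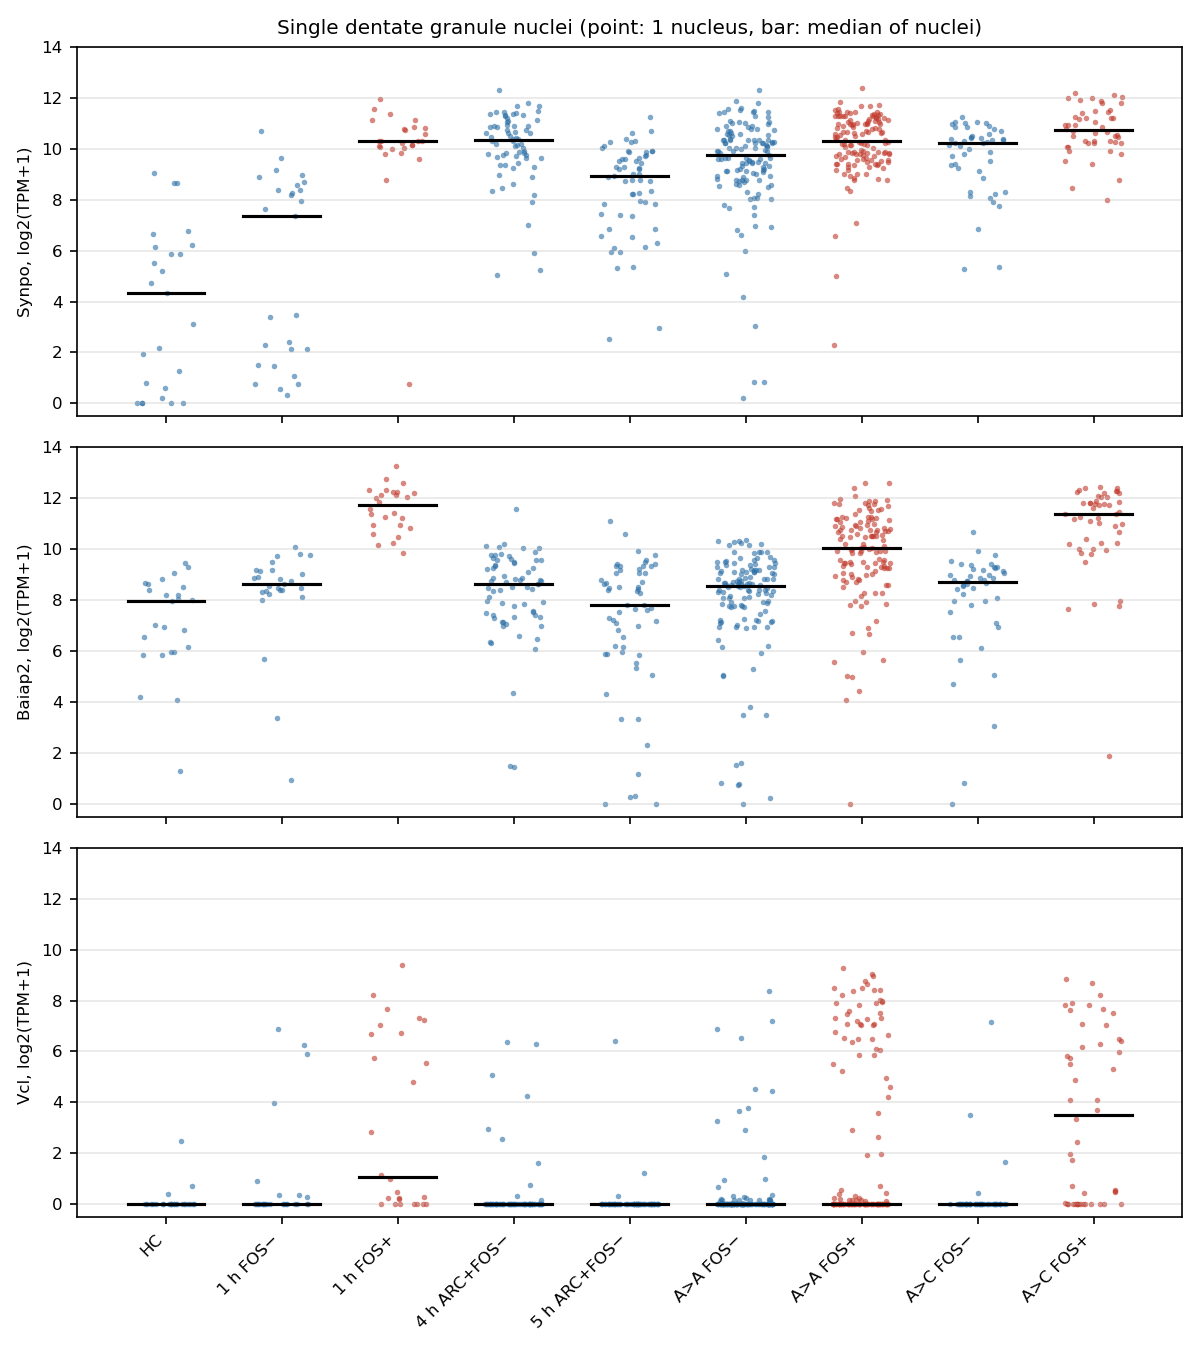
Single DG nuclei by group, with log2(TPM+1) of Synpo, Baiap2 and Vcl on the vertical axis, 1 point per nucleus and a bar at the median (red: FOS+, blue: FOS−). Synpo is spread widely in HC and 1 h FOS− nuclei (medians 4.34 and 7.38) and lies near 10 in most nuclei of the ARC+ groups apart from 5 h, whereas Vcl is at or near 0 in most FOS− nuclei and in part of the FOS+ nuclei.

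Synpo stayed high after the exposure in nuclei marked by ARC. The HC mice were at 3.75 and 4.31 log2(TPM+1), the 4 h mice at 10.18 and 9.85, and the 5 h mice at 8.87, 8.65, 7.22 and 8.07. Every mouse at 4 h and 5 h lay above both HC mice, and the 5 h mice lay below both 4 h mice. All 68 nuclei at 4 h and 57 of 59 at 5 h were above the HC median.

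The counts, summed per mouse and tested over all genes with edgeR's quasi-likelihood test and Benjamini-Hochberg adjustment, called Synpo higher at 4 h by a log2 fold change of 4.93 (SE 0.42, adjusted p = 2.90e-06) and at 5 h by 3.33 (SE 0.37, edgeR adjusted p = 0.000109). These tests share the HC mice with each other and with the description at 1 h. The HC sums came from a library set that held no 4 h or 5 h nuclei, and HC nuclei were not sorted for ARC. Library set, ARC sort and exposure thus cannot be told apart in these tests. At 4 h, 60 of 24405 genes tested were called (0.246%), all higher, and Synpo was 1 of them and the other 6 members were not. At 5 h, 64 genes were called (0.262%), 57 higher and 7 lower, again with Synpo and no other member. The median log2 fold change of the members was 2.45 at 4 h and 1.26 at 5 h, beside 0.23 and 0 over all genes tested. The median over all genes depended on the HC mice and the scaling: it was 1.26 at 4 h and 0.80 at 5 h without HC mouse 6, and 0 at 4 h with DESeq2's size factors. Directions depended on the tool. Limma on the log2(TPM+1) means called 130 genes higher and 340 lower at 4 h, where its median over all genes was −0.12. At 5 h it called 137 higher and 1170 lower, with a median of −0.26.

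Baiap2 followed a different course. The HC mice were at 7.36 and 6.54, the 4 h mice at 8.25 and 8.30, and the 5 h mice at 8.09, 7.58, 4.57 and 5.88. The 4 h mice were above both HC mice, but by 1.22 on the log2 scale of the counts (SE 0.45, edgeR adjusted p = 0.659), and of the 5 h mice 2 lay above and 2 below both HC mice. Mice 22 and 23, the lowest at 5 h, had median total counts of 1776118 and 1555742 per nucleus, deeper than mice 8 and 9 (381170 and 350943) and in another library set, and the part of library set or depth was not tested.

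Vcl was low in HC and in the later ARC+FOS− mice, and no difference was called. It was at 0.20 and 0 in HC, at 0.59 and 0.21 at 4 h, and at 0, 0.36, 0.03 and 0 at 5 h. The 4 h mice were just above the HC mice, with a count in 10 of 68 nuclei, and at 5 h 3 of 59 nuclei had one. On the counts Vcl averaged 0.937 CPM in HC, 10.4 at 4 h and 4.18 at 5 h, and the log2 fold change at 4 h was 3.52 (SE 2.43, edgeR adjusted p = 0.866).

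Of the crosslinkers, Actn4 had the largest fold at 4 h. Its HC mice were at 0.97 and 2.83 and its 4 h mice at 2.93 and 3.04, which differ by a log2 fold change of 2.56 (SE 0.75, edgeR adjusted p = 0.340). DESeq2 alone called this difference (adjusted p = 0.0370). Actn2 (1.40 and 2.73 in HC, 3.05 and 2.65 at 4 h), Actn1 (2.24 and 2.57, then 2.79 and 2.13) and Palld (0.20 and 0.96, then 0.37 and 0.07) overlapped between HC and 4 h, and Actn2 had a log2 fold change of 2.45 (SE 1.03, edgeR adjusted p = 0.834). Every 4 h mouse was above every HC mouse for Synpo, Baiap2, Vcl and Actn4, and 18.4% of 11436 genes with a mean over 0.5 did the same, so 4 of the 6 members over that mean, with 2 mice a group, is read against a loose criterion. At 5 h Synpo was the 1 member to do so, beside 5.98% of genes.

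**Figure D2:**
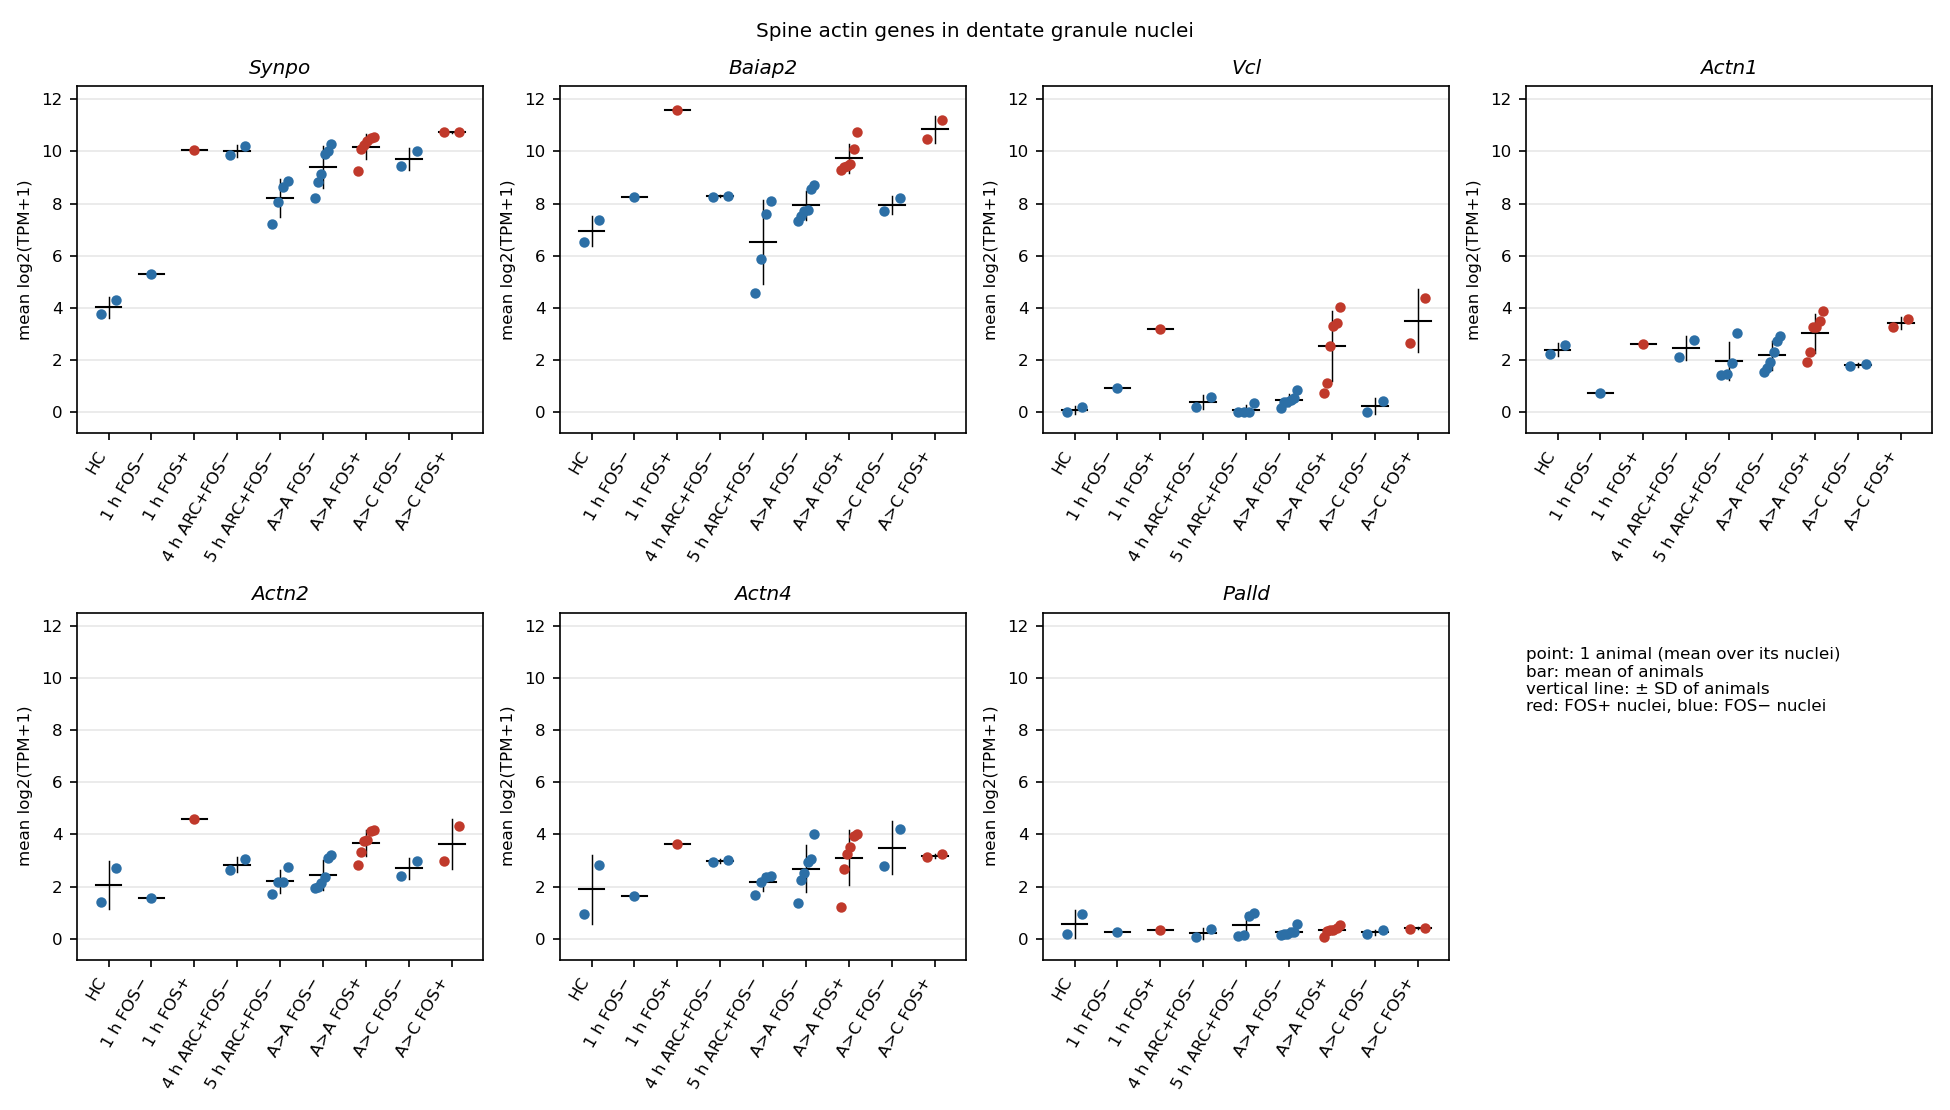
Mean log2(TPM+1) per mouse for the 7 genes in 9 DG groups (points: mice, bar: mean of mice, line: SD, red: FOS+, blue: FOS−). Synpo is near 4 in HC and between 7.22 and 10.74 in every ARC+ group, Baiap2 and Vcl are highest in the FOS+ groups, and Palld is under 1 in every group.

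After a second exposure, FOS+ and FOS− nuclei were both ARC+, so the comparison asked which genes differ with FOS among ARC+ nuclei. The paper states that protein signal could not separate ARC+FOS+ nuclei activated by both exposures from those activated by the second only. The FOS+ groups may thus hold both kinds. In A>A Baiap2 was at 7.33 to 8.69 in the 6 FOS− mice (median 7.73) and at 9.29 to 10.73 in the 6 FOS+ mice (median 9.46), and the groups did not overlap, which held for 1.64% of genes. The log2 fold change was 1.73 (SE 0.26, edgeR adjusted p = 0.0181), and Baiap2 was 1 of 10 genes called among 24405 (0.041%). The difference was present within each of the 4 mice that gave both kinds of nuclei (mice 24 to 27), by 0.88, 2.99, 1.87 and 1.57.

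The Baiap2 call depends on whether the pairing of mice is modelled and on which mice are compared. With the animal as a replicate block the fold change was 1.88 with an adjusted p of 0.461, and over mice 24 to 27 alone it was 1.96 (edgeR adjusted p = 0.176). The edgeR adjusted p was 0.0531 without FOS− mouse 27 and 0.0541 without FOS+ mouse 25. With each mouse left out in turn the log2 fold change stayed between 1.58 and 1.90. In A>C, Baiap2 was at 8.20 and 7.71 in FOS− mice and at 11.21 and 10.49 in FOS+ mice, a log2 fold change of 2.86 (SE 0.47, edgeR adjusted p = 0.130, and 1.97e-07 by DESeq2).

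Synpo was high in both ARC+ groups of A>A. Its A>A FOS− mice ran from 8.20 to 10.28 (median 9.50) and the FOS+ mice from 9.25 to 10.56 (median 10.32), so the groups overlapped, at a log2 fold change of 0.57 (SE 0.21, edgeR adjusted p = 0.263). Within mice 24 to 27 Synpo was higher in FOS+ nuclei in 4 of 4, by 0.22 to 1.73. In A>C it was at 10.01 and 9.42 in FOS− and 10.72 and 10.74 in FOS+ mice (log2 fold change 0.98, SE 0.36, edgeR adjusted p = 0.899). All ARC+FOS− mice of these 2 groups, at 8.20 and above, were over the HC mice.

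Vcl in A>A FOS+ mice split with the library set. FOS− mice were at 0.15 to 0.87 (median 0.44). FOS+ mice 15 and 16 were at 2.56 and 3.43, mice 24 and 25 at 3.32 and 4.03, and mice 26 and 27 at 0.75 and 1.11, each pair being a library set of its own. In all 4 mice with both kinds of nuclei the FOS+ nuclei were higher, by 2.45 and 3.57 in mice 24 and 25 and by 0.60 and 0.73 in mice 26 and 27. The fitted log2 fold change was 3.52 (SE 1.39, edgeR adjusted p = 0.273), and limma on the log2(TPM+1) means, where it was 2.06, called it (adjusted p = 0.00636).

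In A>C, Vcl was at 0.02 and 0.46 in FOS− mice and 4.38 and 2.66 in FOS+ mice (log2 fold change 4.32, edgeR adjusted p = 0.899; limma called it, with an adjusted p of 0.0297). The share of nuclei with a Vcl count was 22.5% and 48.5% in A>A FOS− and FOS+ and 8.70% and 68.8% in A>C, and after thinning 9.30%, 39.2%, 4.35% and 56.2%. Vascular cells also carry vinculin: of 6 endothelial markers, 3 and 4 were detected in A>A FOS− and FOS+ nuclei with a summed level of 0.53 to 19.5 and 0.48 to 27.1 TPM per mouse, and 3 and 4 in A>C with 2.16 to 10.6 and 9.88 to 19.8 TPM. Cldn5 and Ly6c1 were at 0 in all 4 of these groups, whereas Pecam1 had a count in 49.6% of all DG nuclei, Itm2a in 4.48%, Flt1 in 3.76% and Slco1a4 in 1.08%. Their part in the Vcl values was not tested.

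The alpha-actinins had smaller differences. Actn1 was at 1.54 to 2.92 in A>A FOS− and 1.92 to 3.89 in FOS+ mice, and Actn2 at 1.94 to 3.21 and 2.84 to 4.19, with log2 fold changes of 0.67 and 0.83 that the test did not call. In A>C, Actn1 was at 1.77 and 1.86 in FOS− and at 3.58 and 3.27 in FOS+ mice (log2 fold change 2.05, edgeR adjusted p = 0.899, called by DESeq2 alone with an adjusted p of 0.00373). Actn2 was at 2.42 and 2.98 against 2.97 and 4.32, Actn4 at 2.78 and 4.21 against 3.13 and 3.25, and Palld at 0.18 and 0.33 against 0.40 and 0.44. Actn4 in A>A ran from 1.38 to 4.02 in FOS− and from 1.21 to 4.03 in FOS+ mice. Of the 6 members with a mean over 0.5, Synpo, Baiap2, Vcl and Actn1 were higher in both FOS+ than in both FOS− mice in A>C, beside 15.6% of genes.

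No gene passed edgeR's threshold in A>C (0 of 24405, 0%, with 1089 at an unadjusted p under 0.05, 1129 called by DESeq2 and 82 by limma, where the median over all genes was −0.21). The difference between the A>A and the A>C contrast was tested as such, with no gene called by edgeR (0%, with 1068 at an unadjusted p under 0.05) or limma and 774 by DESeq2, and for Baiap2 it was −1.13 (SE 0.51, edgeR adjusted p = 1). That of Synpo was −0.41.

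Among all genes, those whose means per mouse followed Synpo most closely over 26 DG means were Lingo1 (Pearson's r = 0.94), Arc (0.94), Abr (0.90), Inhba (0.90) and Fmnl1 (0.89), of 8129 genes with a mean above 1. These points share libraries and depth, the later groups were sorted for ARC protein, and the correlation is a description. They include both 1 h means of mouse 3, the contrast on which the genes were chosen. HC and 1 h FOS− nuclei with Arc above 2.5 were left out, which bounds Arc in those groups. Arc, the activity-regulated cytoskeletal gene, was at 0.33 in HC, 8.80 at 4 h and 5.47 at 5 h, beside 4.03, 10.02 and 8.20 for Synpo. Fmnl1, a formin that elongates actin filaments, was at 2.62, 9.26 and 6.94. The other members were further from Synpo: Actn2 ranked 231 (r = 0.58), Baiap2 280 (0.56), Actn4 479, Vcl 775 and Actn1 865. Over single nuclei of a group, Synpo and Baiap2 were weakly related at most, with a Spearman's rank correlation of 0.02 in 130 A>A FOS+ nuclei and 0.29 in 68 nuclei at 4 h.

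Of the other cell types at 1 h, FOS+ and FOS− nuclei were tested in CA1, VIP and subiculum only, with few mice a group. The paper, which tested over single nuclei, reports some differing genes in CA1 and VIP. No gene was called between FOS+ and FOS− nuclei in CA1 (0 of 14507, 0%), VIP (0 of 15002, 0%) or subiculum (0 of 14071, 0%), where 629, 850 and 944 genes had an unadjusted p under 0.05 and DESeq2 called 227, 437 and 423. Of the members, 6 of 7 passed the filter on low counts in each.

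Synpo in CA1 was at 3.19, 4.42 and 3.06 in FOS− and at 4.66, 3.92 and 4.74 in FOS+ nuclei of mice 2, 4 and 10, higher in 2 of 3. In the subiculum the same mice gave 4.35, 4.67 and 2.33 in FOS− and 4.34, 7.63 and 6.02 in FOS+ nuclei, which came to 1.48 as a log2 fold change (SE 0.85, edgeR adjusted p = 0.728). The subiculum sums hold 2 to 5 nuclei each. In CA3, mice 4 and 10 went from 6.08 and 5.32 to 5.40 and 4.45, lower in both, and in VIP nuclei both mice went from 0 to 0.94 and 1.10, a difference that DESeq2 called (adjusted p = 0.00655) and edgeR did not.

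Baiap2 moved either way in CA1, from 7.12, 7.17 and 7.78 in FOS− to 8.85, 6.42 and 6.57 in FOS+ nuclei of mice 2, 4 and 10. In VIP nuclei it went from 3.08 to 2.65 in mouse 4 and from 0.48 to 4.48 in mouse 5. Vcl went from 5.71 to 1.51 in CA1 of mouse 10 and from 0.34 to 4.47 in its subiculum, so its values within 1 mouse pointed opposite ways. Actn4 was higher in FOS+ nuclei in all 10 within-mouse pairs of CA1, subiculum, CA3 and VIP, by 0.30 to 3.71, and in 3 of 4 A>A mice. These pairs come from 4 mice, so they are not independent, and 32 of 13700 genes (0.234%) were also higher in all 10. The Actn4 mean of FOS− nuclei was 0 in the subiculum of mice 2 and 4 and in VIP of mice 4 and 5. Median total counts were higher in FOS+ nuclei of each type, with 599311 against 344915 in VIP. After thinning, the share of CA1 nuclei with an Actn4 count was 19.0% in FOS− and 15.2% in FOS+. It was 16.7% and 45.5% in the subiculum and 20% and 30.8% in CA3. Palld differed by at most 1.85 in any mouse.

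**Figure D3:**
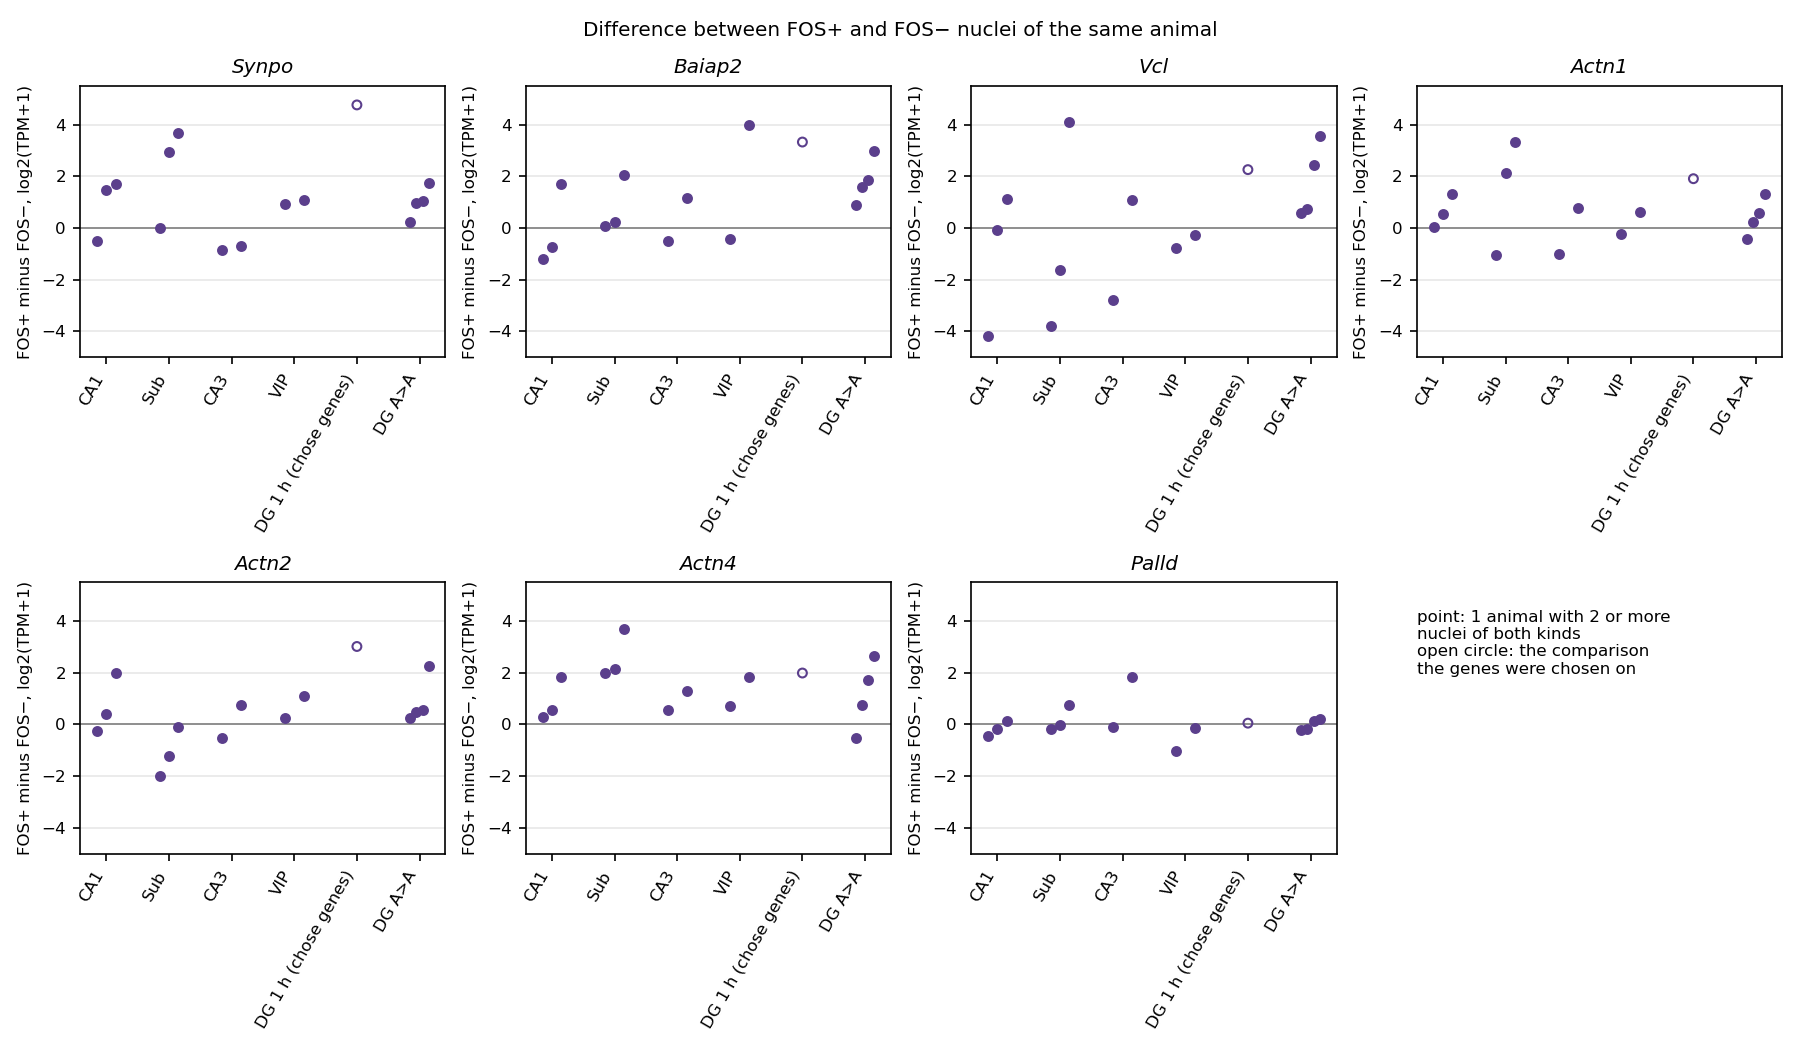
FOS+ minus FOS− difference in mean log2(TPM+1) within each mouse that gave at least 2 nuclei of both kinds, by cell type and set (point: 1 mouse, open circle: the 1 h DG mouse on which the genes were chosen). Synpo, Baiap2 and Vcl lie above 0 in all 4 A>A mice, while Baiap2 and Vcl lie on both sides of 0 in CA1.

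In FOS− nuclei of HC and 1 h mice, taken as a baseline, Synpo and Baiap2 were several log2 units lower in VIP interneurons than in excitatory types, while Vcl, Actn1, Actn2, Actn4 and Palld overlapped between them. The baseline holds the 1 h FOS− DG nuclei of mouse 3, which are part of the contrast that chose the genes. Synpo was highest in CA3 (5.07 ± 1.15, SD, n = 3 mice), then DG (4.45 ± 0.78, n = 3), subiculum (3.70 ± 0.93, n = 5), CA1 (3.44 ± 1.83, n = 6) and VIP (0.21 ± 0.32, n = 5). Neighbours in this order overlapped, CA1 and VIP through 1 CA1 mouse at 0.35. A Synpo count was found in 32 of 40 CA1 nuclei and 4 of 39 VIP nuclei, 62.5% and 5.13% after thinning, at median total counts of 1156960 and 544320. No Synpo count was found in 10 Ivy nuclei, which allows a share of nuclei with a count of up to 30% at this depth and says nothing of expression below it.

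Baiap2 had the order CA1 (7.74 ± 0.52, n = 6), DG (7.38 ± 0.86, n = 3), CA3 (7.06 ± 1.17, n = 3), subiculum (6.22 ± 1.70, n = 5) and VIP (1.01 ± 1.19, n = 5). The 4 excitatory types overlapped with their neighbours, and the lowest subiculum mouse, at 4.14, was above the highest VIP mouse, at 3.08. Ivy mice were at 0 and 0.72.

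Vcl had another order. It was highest in CA3 (3.66 ± 1.16, n = 3) and CA1 (2.68 ± 1.92, n = 6), then subiculum (1.61 ± 1.33, n = 5) and VIP (1.49 ± 0.94, n = 5), and DG was lowest of these 5 (0.37 ± 0.49, n = 3). The mice of each neighbour overlapped. Actn1 lay between 1.13 in VIP and 2.01 in CA3 and Actn2 between 1.80 in VIP and 3.44 in CA3, again with overlap at each step. Actn4 was at 1.81 in DG and 0.21 in VIP, where 3 of 39 nuclei had a count, and Palld was under 0.7 in all 5 types and was at 2.08 in the 5 HC Th nuclei of 1 mouse.

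**Figure D4:**
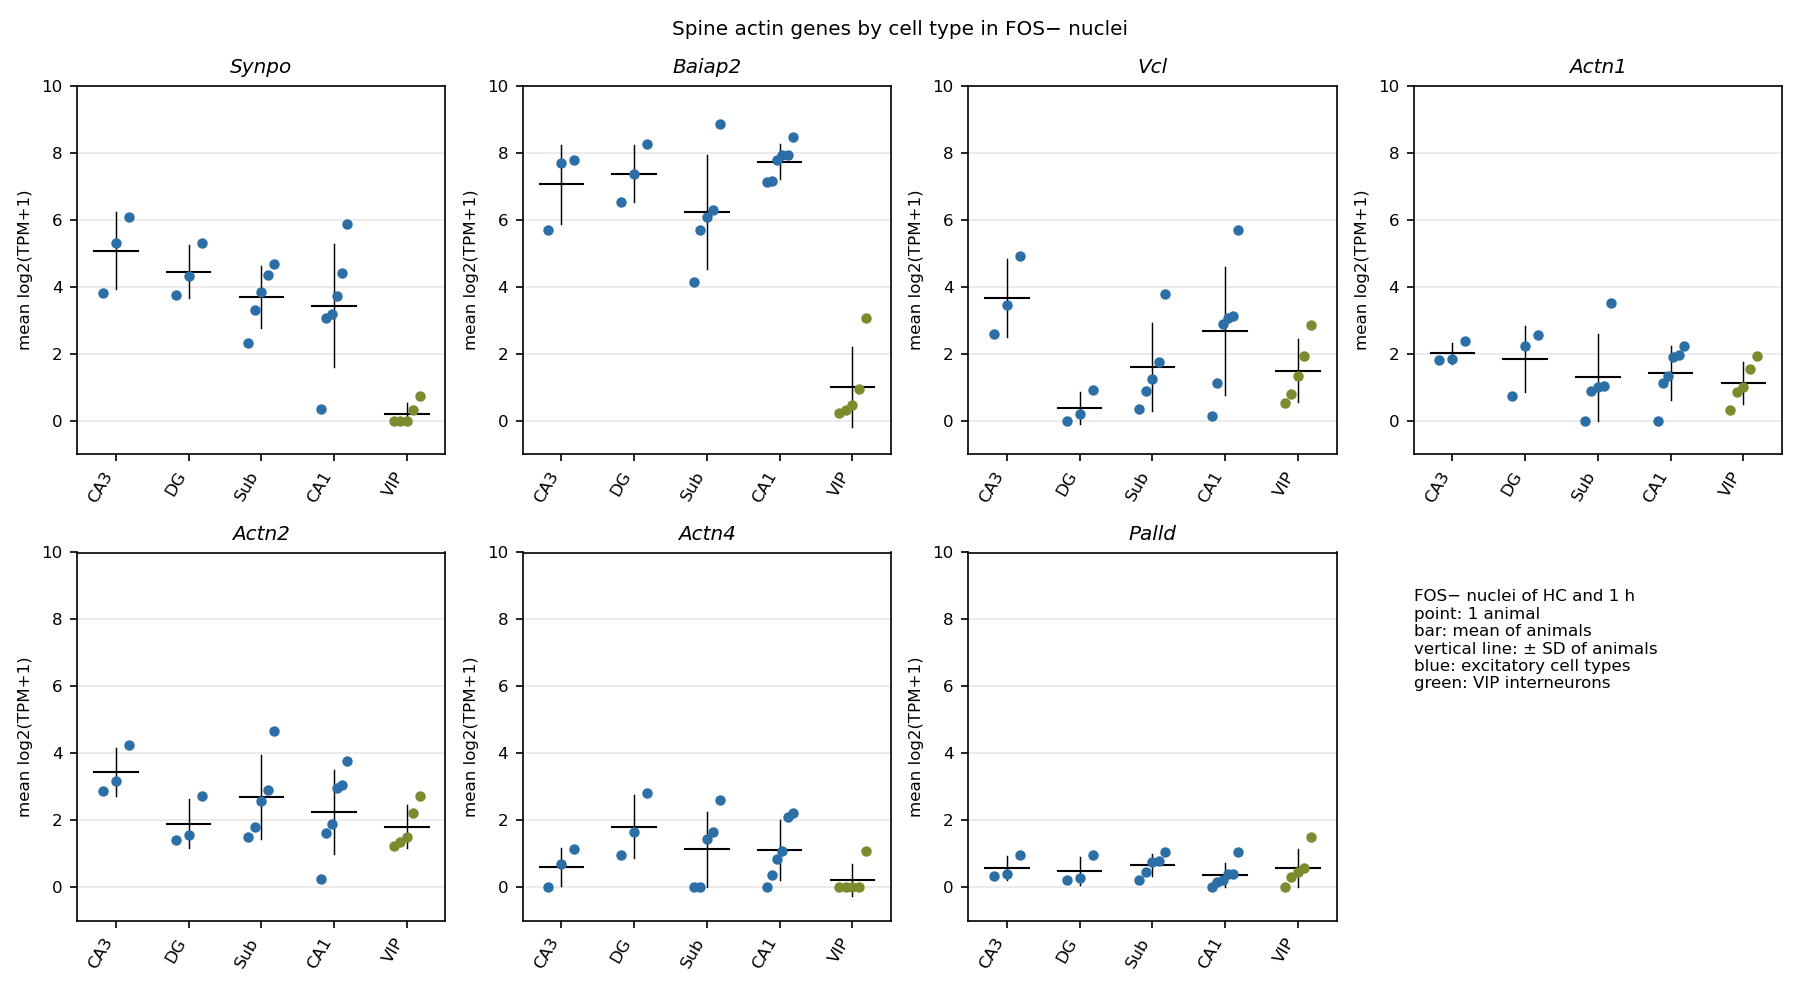
Mean log2(TPM+1) per mouse in FOS− nuclei of HC and 1 h mice by cell type (points: mice, bar: mean of mice, line: SD, blue: excitatory types, green: VIP interneurons). Synpo and Baiap2 are low in all 5 VIP mice, and Vcl is lower in DG than in most CA1 and CA3 mice.

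In 1 fit over the cell types, Synpo was called higher in DG than in VIP nuclei (edgeR adjusted p = 0.00783) and higher in CA1 than in VIP nuclei (edgeR adjusted p = 0.00977), as 1 of 58 (0.257%) and 1 of 84 (0.372%) genes among 22551. Fold changes are not given, since the VIP sums of 1 h mice held no Synpo count. Its level was 149 CPM (counts scaled to library size) in DG, 102 in CA1 and 2.52 in VIP, as means of mice. The DG mean rests on mouse 3, at 297 CPM, while the 2 HC mice were at 70.9 and 79.0, with a mean of 74.9 that is below CA1. With the animal as a replicate block the adjusted p was 0.116 and 0.313, and without VIP HC mouse 5 it was 0.124 and 0.104. With HC nuclei alone, which leaves out mouse 3, it was 0.763 and 0.766. Baiap2 was higher in DG than in VIP nuclei by 4.81 (SE 1.20, edgeR adjusted p = 0.125) and in CA1 by 4.14 (SE 1.10, edgeR adjusted p = 0.121), so neither difference was called although the mice did not overlap. Between DG and CA1, 21 genes were called (0.0931%) and no member.

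Other genes of the spine actin machinery were read from lists of 26 genes for actin and filament nucleation, 25 for filament turnover and capping, 30 for filament binding and crosslinking in spines, 19 adhesion partners of vinculin, 6 for serum response factor and its coactivators, and 9 paralogs of the members. At 4 h and 5 h, in A>A and in A>C no gene of these lists was called. The median log2 fold change at 4 h was 0.04 for nucleation, 0.83 for turnover and capping and 0.16 for crosslinking, beside 0.23 over all genes.

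Between cell types, more of these genes passed. Cap2, a cyclase-associated protein that recycles actin monomers, was called higher in both DG and CA1 than in VIP nuclei, as was Mkl2, a coactivator of serum response factor. For Cap2 the edgeR adjusted p was 0.0248 for DG and 0.0485 for CA1. Its CA1 mice ran from 0 to 4.25 and its VIP mice from 0 to 0.55. With the animal as a replicate block, 12 genes in all were called for DG against VIP and 3 for CA1 against VIP. Camk2b, the kinase subunit that bundles actin, and Sptbn1, a spectrin, were called higher in DG. Mkl2 was at 7.76 ± 0.35 (n = 3) in DG, 6.23 ± 0.64 (n = 6) in CA1 and 2.97 ± 0.80 (n = 5) in VIP. Eps8, which caps filaments, was the 1 gene of the lists called lower in CA1 than in VIP nuclei, at 0.02 and 1.75. Its VIP mice ran from 0 to 4.05 and overlapped the CA1 mice, at 0 to 0.05.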

How the data were processed

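Single hippocampal nuclei were sequenced by the authors as SmartSeq2 libraries with single-end reads of 50 bases, trimmed, and quantified with RSEM using Bowtie (both named in the submitters' processing notes, no version given) against mm10 with an Ensembl annotation of unstated release. The deposited RSEM expected counts were whole numbers and were used as they stand, and the authors also deposited log2(TPM+1), which is on a log2 scale. Of 42802 genes in the count tables, 30 without a value were left out.

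The members and lists were chosen with earlier results of these data known. One list is not reported here. Named genes are the 7 members, genes of the lists that passed a test (at most 3 per list and comparison), the 5 most like Synpo, and markers. The depth filter asked for 100000 aligned reads and for 4000 genes with log2(TPM+1) over 1, and FOS− nuclei of HC and 1 h mice with Arc above 2.5 were left out. Counts were summed per animal and group (at least 2 nuclei) and tested with the quasi-likelihood functions glmQLFit and glmQLFTest of edgeR 4.0.16 (R 4.3.3), after filterByExpr and TMM scaling, with Benjamini-Hochberg adjustment at 0.05, in one fit per cell type and one over cell types. All DG groups shared one estimate of the spread, which an animal that is alone in its group is assumed to follow. Separate mice are replicates. The fit was run on simulated counts for the A>A contrast alone, with changes larger than those of the members there. That run says nothing of smaller changes or of groups with fewer mice. Alternatives were DESeq2 1.42.0, its size factors, limma 3.58.1 on mean log2(TPM+1), no filter, other thresholds and leaving out each animal, and 4 more were chosen with the values in view.

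Per the labels, 3 CA1, 3 subiculum, 2 VIP and 4 A>A animals gave both a FOS+ and a FOS− sum. The mean correlation of their deviations from group means was 0.039, 0.053, 0.011 and 0.036, and between −0.026 and −0.004 for different animals. Deviations from a mean cancel within a group, so the values for different animals are partly tied to those for the same animal. Fits that kept each animal as a replicate block were run as alternatives.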

Additional observations from a re-analysis of the deposited data

Results flagged for a closer look

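Within groups of 4 to 6 mice, 3 values lay far from the rest, where chance alone marks about 1 group in 20 and 21 groups were examined. Synpo in A>A FOS+ nuclei of mouse 24 had a mean log2(TPM+1) of 9.25, below the 10.08 to 10.56 of the other 5 mice; its FOS− nuclei, at 8.20, were also the lowest of their group. Vcl at 5 h was at 0.36 in mouse 9, against 0.03 or less in the other 3. Palld in A>A FOS− nuclei of mouse 26 was at 0.57, against 0.14 to 0.28.

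Some differences between FOS+ and FOS− nuclei of the same animal pointed opposite ways in different cell types, in every animal of each; whether they differ between the cell types was not tested. Synpo was lower in FOS+ nuclei of both CA3 animals (mean difference −0.77) and higher in both VIP animals (1.02) and all 4 A>A animals (0.99). Vcl was lower in both VIP animals (−0.52) and higher in all 4 A>A animals (1.84). Actn2 was lower in all 3 subiculum animals (−1.12) and higher in both VIP animals (0.68) and all 4 A>A animals (0.88). These groups hold 2 to 4 animals and as few as 2 nuclei per animal, and those at 1 h share 4 mice.

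CA3 and Pvalb entered no tested contrast, though CA3 sums were part of the fit over cell types. Both FOS+ animals lay above both home cage animals for Synpo in CA3 (lowest FOS+ animal at 4.45). The same held for Synpo and Vcl in the 4 Pvalb FOS+ nuclei (lowest FOS+ animal at 0.88 and 3.13). In each type 1 of the home cage animals gave only 1 nucleus. Within the 2 CA3 animals Synpo was nonetheless lower in FOS+ than in FOS− nuclei.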

How the results depend on the processing

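Synpo kept its calls under 10 of 10 alternatives at 4 h (log2 fold change 4.61 to 5.98, adjusted p 5.18e-31 to 0.000849) and 12 of 12 at 5 h (3.19 to 4.17, 6.95e-20 to 0.0128). Baiap2 in A>A lost its call in 5 of 21 (1.58 to 1.96, 3.69e-08 to 0.461). Synpo against VIP lost its call in 3 of 17 for DG and 3 of 20 for CA1. Baiap2 against VIP, not called by edgeR as planned, was called in 3 alternatives for each, including when VIP 1 h mouse 4 was left out (adjusted p 0.000186 for DG and 0.000220 for CA1). Actn4 was called higher than in VIP by DESeq2 alone. Of 48 other member values, 29 changed sign in some alternative, none of them called with the changed sign. Few mice per group and nuclei per mouse limit each of these values, most for the low genes.

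The number of genes called depended strongly on the tool; the cause was not tested for any change given here. The counts were 0 in CA1, VIP and subiculum, 60 at 4 h, 64 at 5 h, 10 in A>A, 0 in A>C and for the difference between A>A and A>C, and 21, 58 and 84 for DG against CA1, DG against VIP and CA1 against VIP. In that order, DESeq2 called 227, 437 and 423, then 1011, 1987, 874, 1129 and 774, then 760, 1513 and 1670. Limma called 470 at 4 h, 1307 at 5 h, 327 in A>A, 82 in A>C, and 65, 207 and 290 between cell types. DESeq2's size factors in edgeR gave 38 at 4 h. Treating each library set of a mouse as its own animal gave 36 at 5 h, 18 in A>A, 96 for DG against VIP and 130 for CA1 against VIP. With no filter DG against CA1 had 13, and with at least 5 nuclei a sum 11, with 91 for DG against VIP.

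With the animal as a replicate block the counts were 0 in A>A (edgeR, 1649 at an unadjusted p under 0.05) and 9, 12 and 3 between the cell types, and the block ended the calls of Baiap2 in A>A and of Synpo against VIP and changed no other call of a member. Mice 24 to 27 alone gave 0 in A>A, with or without the block. The version with it, and the 3 with home cage nuclei only (7 for DG against CA1, 15 for DG against VIP and 5 for CA1 against VIP), were chosen after seeing the data.

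Leaving out 1 animal at a time gave 17 to 180 genes at 4 h and 20 to 204 at 5 h, lowest without HC mouse 7 and highest without HC mouse 6 in both. It gave 1 to 12 in A>A (1 without FOS− mouse 27 and 1 without FOS+ mouse 25), 0 to 1 in A>C, 0 to 1 for the difference, 10 to 24 for DG against CA1 (10 without CA1 1 h mouse 10 or mouse 4), 20 to 81 for DG against VIP and 26 to 107 for CA1 against VIP, both lowest without VIP HC mouse 5.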
